A study of Mus musculus with 8 samples.

Results

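Hepcidin and iron handling genes were read in the liver of C57BL/6 mice with and without rilpivirine, an antiretroviral drug that blocks HIV reverse transcriptase without being a nucleoside analog. The set was fixed by name as Hamp, Tfr2, Tfrc, Hfe, Slc40a1, Slc11a2, Fth1, Ftl1, Trf and Bmp6, and a member counted as measured when the platform annotation gave a probe set that symbol alone. On that rule 8 of the 10 were measured, out of 22180 genes in all, each by 1 probe set, and all 8 were bright enough to be tested among 16635 genes. Ftl1 was annotated on 6 probe sets and Trf on 1, each together with other genes, and neither is described further. Liver RNA was measured on 1-colour Affymetrix whole-transcript arrays, 300 ng per sample, with 4 arrays labelled rilpivirine and 4 labelled control. Both groups are wild-type and carry the label of non-alcoholic fatty liver disease. The labels mention a normal diet and a diet with 60% fat over 3 months without assigning them to samples. The drug was given by mouth each day at a dose stated only as equivalent to human use. Age, sex and the vehicle of the controls are not given in the labels, and the labels do not say whether the arrays come from different animals. The p-values therefore reflect the spread between these samples, which may be technical.

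Hepcidin, the product of Hamp, is a peptide hormone that hepatocytes secrete. It binds the iron exporter ferroportin, encoded by Slc40a1, and causes its degradation, so that macrophages and enterocytes release less iron. Transcription of Hamp is driven by bone morphogenetic proteins, above all BMP6 from sinusoidal endothelial cells, acting through SMAD proteins with the help of HFE and transferrin receptor 2, and by interleukin 6 acting through STAT3. Inside cells, iron regulatory proteins bind hairpins in transcripts: they protect the mRNA of the transferrin receptor Tfrc and of a form of the importer Slc11a2, and block translation of ferritin and ferroportin.

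The hepcidin promoter carries both inputs. It is shown beside that of the neighbouring gene Hamp2, the mouse paralog that does not share the iron-regulating role of Hamp. Hamp2 is described below, and the difference between the genes' responses was not tested. The 250 bases before the RefSeq start site are printed 5′ to 3′ from build GRCm38.p6, for Hamp from chr7:30944030-30944279 and for Hamp2 from chr7:30924182-30924431, both on the minus strand. Capitals mark GGCGCC, the core of the bone morphogenetic protein response element, and TTCTTGGAA, the STAT site.
Hamp: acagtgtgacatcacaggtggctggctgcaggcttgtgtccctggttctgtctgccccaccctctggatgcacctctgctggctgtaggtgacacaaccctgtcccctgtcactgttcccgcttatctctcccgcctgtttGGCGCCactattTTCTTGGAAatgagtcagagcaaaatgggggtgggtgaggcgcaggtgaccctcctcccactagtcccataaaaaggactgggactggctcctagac
Hamp2: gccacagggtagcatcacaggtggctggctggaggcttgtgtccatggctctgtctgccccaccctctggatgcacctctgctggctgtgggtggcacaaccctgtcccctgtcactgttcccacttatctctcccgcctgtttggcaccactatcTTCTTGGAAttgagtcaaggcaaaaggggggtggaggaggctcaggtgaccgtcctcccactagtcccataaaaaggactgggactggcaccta
In Hamp the response element core began 109 bases and the STAT site 97 bases before the start; in Hamp2 the STAT site began 94 bases before it, and the stretch aligned with the core of Hamp read GGCACC. A global alignment of the windows gave 227 identical positions in 253 columns, or 89.7%. Searched on both strands over 32851 promoter windows of this length, GGCGCC occurred in 9.59%, TTCTTGGAA in 0.365% and both together in 3 windows. Of the 7 members with a window in the table, GGCGCC was found in Hamp and in 1 of the 2 windows of Tfrc, and TTCTTGGAA in Hamp alone. A match describes the letters of a window and not a bound site.

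No measured member differed between rilpivirine and control beyond the spread between samples. In the limma fit over all genes, 0 of 8 members passed a Benjamini-Hochberg adjusted p of 0.05, where the share over all genes was 0%, and the adjusted p-values of the members ran from 0.890 to 0.999. At an unadjusted p under 0.05 the members gave 0 of 8, against 867 genes or 5.21% of all genes tested. The groups overlapped in all 8 members, while 3.04% of all genes had groups without overlap, 1.3% higher and 1.73% lower with rilpivirine. The members' log2 differences ran from -0.21 to 0.12, with a median of -0.04 beside -0.03 over all genes, and 5 of the 8 were lower and 3 higher with rilpivirine, beside 56.9% and 43.1% of all genes. The 95% confidence intervals of all 8 together reached from -0.55 to 0.53 log2, or from 0.684 to 1.44 times the control level. RNA of a whole piece of liver cannot tell fewer cells of a type from less RNA per cell.

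Array medians lay between 3.33 and 3.45 log2, and correlations between arrays between 0.955 and 0.986. Rilpivirine replicate 2 stood apart, with a mean correlation with the other arrays of 0.965 against 0.976 to 0.981. All 10 hepatocyte markers were bright, up to a mean of 13.3 log2, with 5 higher and 5 lower with rilpivirine. Of the 10, only Pck1, at -0.62, had an unadjusted p under 0.05 in limma. Among the markers of other cells, 7 of 9 stellate cell genes were lower and 2 higher, and the cholangiocyte genes gave 2 in each direction. Of the stellate cell genes only Cygb, at -0.33 ± 0.10 (SE), had an unadjusted p under 0.05 in limma. It was also the only stellate cell gene with groups without overlap. Over all genes, 3.21% were lower at that threshold and 1.73% were lower without overlap. All tested neutrophil (5), lymphocyte (5) and muscle (7) markers were higher, each list with a median difference of 0.11, and 0 passed the adjusted threshold. Cd79a and Atp2a1, both at 0.34, had an unadjusted p under 0.05 in limma, where 2% of all genes were higher. Of the tested neutrophil, lymphocyte and muscle markers, only Atp2a1 had groups without overlap, against 1.3% of all genes that were higher without overlap. Below the filter, S100a8, S100a9 and Mylpf were lower, at -0.07, -0.03 and -0.09. Camp, Retnlg and Ms4a1, also below it, were higher, at 0.16, 0.60 and 0.04. Neutrophil genes had means of at most 3.29 log2, near the filter at 2.72. The number of arrays limits the precision. Levels below are log2 values of a probe set, and differences are rilpivirine minus control. Levels of different probe sets are not on a common scale.

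**Figure D1:**
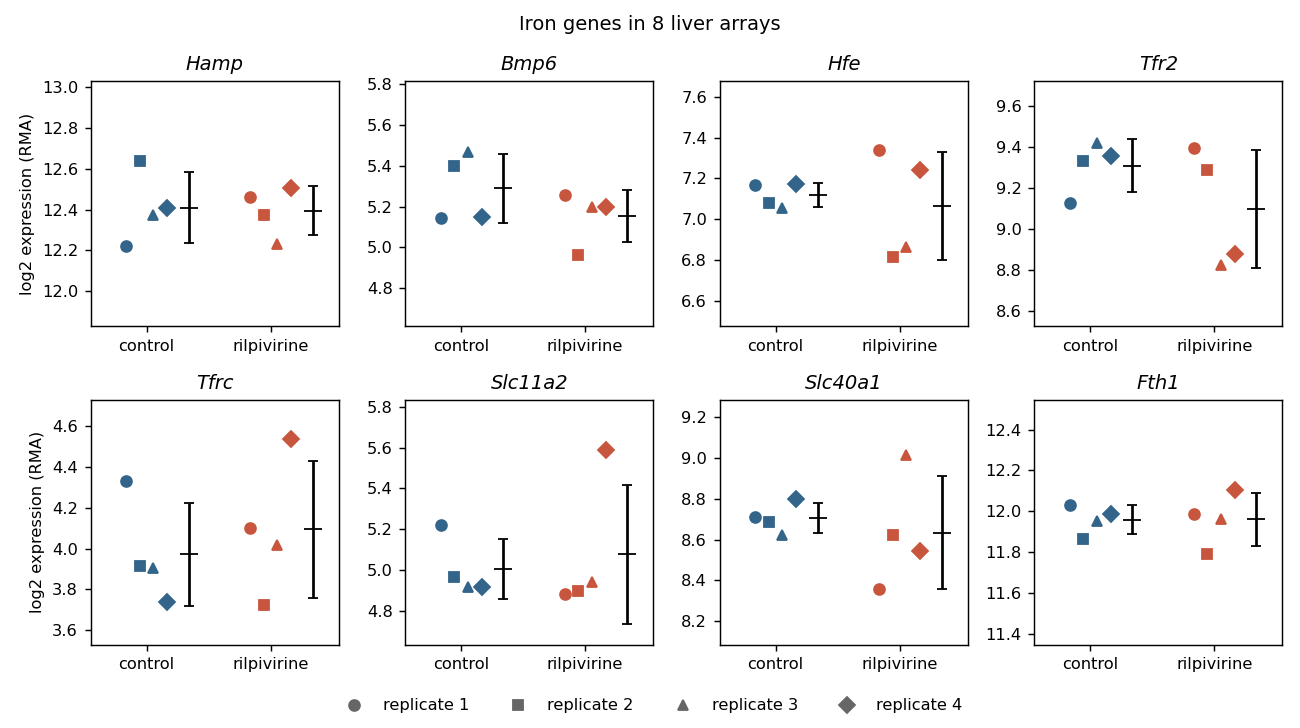
Log2 expression of the 8 measured iron genes in each array, with a panel and a vertical axis for each gene; marker shapes give the replicate number, and the bar beside each group is the mean ± SD (n = 4). The groups overlap in every panel, with Hamp between 12.22 and 12.64 and Slc11a2 highest in rilpivirine replicate 4 at 5.59.

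Hamp lay at the 99.9th percentile of gene means, near the top of the measured range. Its level in rilpivirine replicates 1 to 4 was 12.46, 12.38, 12.23 and 12.50, and in control replicates 1 to 4 it was 12.22, 12.64, 12.37 and 12.41. The lowest and the highest of the 8 arrays were both controls, and all rilpivirine values fell between them. The means were 12.39 ± 0.12 with rilpivirine and 12.41 ± 0.17 in controls (n = 4 arrays per group, SD). The difference was -0.02 (95% confidence interval -0.29 to 0.26), which corresponds to 0.817 to 1.20 times the control level, and limma gave an adjusted p of 0.986. After a further quantile normalization the difference was 0.02.

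Among the inducers and sensors upstream of hepcidin, Bmp6, the endothelial ligand, measured 5.26, 4.97, 5.20 and 5.20 in rilpivirine replicates 1 to 4 and 5.14, 5.40, 5.47 and 5.15 in the controls. Control replicates 2 and 3 were the highest arrays, and the other controls lay inside the range of the rilpivirine group. The difference was -0.13 ± 0.13 (SE; adjusted p = 0.903 in limma), and it was -0.072 without rilpivirine replicate 2 and -0.076 without control replicate 3. Of 12 markers of sinusoidal endothelial cells, the source of BMP6 in liver, 11 were higher and 1 lower with rilpivirine, with a median difference of 0.19 and 0 past the adjusted threshold. At an unadjusted p under 0.05 there were 3 of the 12, all higher, where 2% of all genes were higher. They were Kdr at 0.43, Oit3 at 0.40 and Stab2 at 0.40, with overlapping groups. The mean of the 12 markers, as a deviation from the 8 arrays, ran from -0.14 to 0.23 with rilpivirine and from -0.30 to 0.05 in controls. The part of endothelial content in the value of Bmp6 was not tested.

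Hfe encodes an MHC class I-like protein that associates with the transferrin receptors and is needed for full hepcidin expression. It measured 7.34, 6.81, 6.86 and 7.24 in rilpivirine replicates 1 to 4, against 7.17, 7.08, 7.05 and 7.17 in controls. The rilpivirine arrays lay above or below the narrow control range, 2 on each side. The difference was -0.05 ± 0.14 (SE; adjusted p = 0.956 in limma), and it was 0.03 after a further quantile normalization.

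Tfr2, the transferrin receptor by which hepatocytes sense iron-laden transferrin, had the largest difference of the members. It measured 9.40, 9.29, 8.83 and 8.88 in rilpivirine replicates 1 to 4 and 9.13, 9.33, 9.42 and 9.36 in controls. Replicates 3 and 4 lay below every control, whereas replicates 1 and 2 lay within the control range. The difference was -0.21 (95% confidence interval -0.55 to 0.12; adjusted p = 0.890 in limma). It was -0.12 without rilpivirine replicate 3 and -0.14 without replicate 4. Without rilpivirine replicates 1 and 2 together it was -0.46, with an adjusted p of 0.750 in limma. That omission leaves only the rilpivirine arrays below every control, so the difference had to grow.

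**Figure D2:**
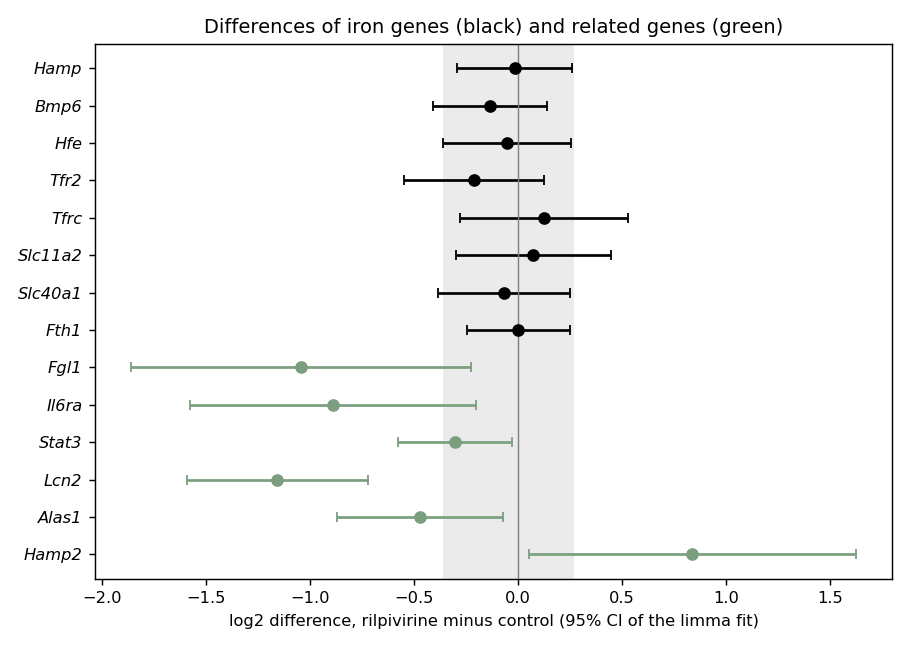
Log2 difference between rilpivirine and control with the 95% confidence interval of the limma fit, for the 8 measured iron genes in black and, in green, the 6 related genes with an unadjusted p under 0.05; the grey band spans the 5th to 95th percentile of all tested genes, -0.36 to 0.26. All black intervals cross 0, and Hamp and Fth1 sit closest to it.

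Of the iron importers, Tfrc, the ubiquitous receptor for transferrin, measured 4.10, 3.72, 4.02 and 4.54 in rilpivirine replicates 1 to 4, and 4.33, 3.92, 3.90 and 3.74 in controls. Rilpivirine held both the lowest and the highest array. The difference was 0.12 ± 0.18 (SE; adjusted p = 0.929 in limma), and without rilpivirine replicate 4 it was -0.02. Of 15 erythroid markers, of a lineage rich in Tfrc, 5 were measured; Slc4a1, Klf1 and Tspan33 passed the brightness filter, and Epb42 and Rhag did not.

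Slc11a2, which encodes the divalent metal transporter DMT1, measured 4.88, 4.90, 4.94 and 5.59 in rilpivirine replicates 1 to 4. The controls were at 5.22, 4.96, 4.92 and 4.92. In each group a single array stood above the others, rilpivirine replicate 4 and control replicate 1, and the remaining 6 arrays lay between 4.88 and 4.96. The difference was 0.07 ± 0.17 (SE; adjusted p = 0.950 in limma), and it was -0.10 without rilpivirine replicate 4. That array also had the highest mean of the tested adipocyte markers, 0.90 log2 above the mean of 8 arrays against -0.28 to -0.03 elsewhere. Of the 6 adipocyte markers 5 were measured and 3 tested. Retn, which encodes resistin, was at 5.38 there and at 2.96 to 3.32 in the other 7 arrays. Plin1 was also highest there, at 4.25, whereas Lep, at 3.00, lay below control replicates 2 and 3. Adipoq and Adig were below the filter in mean, and that array was the highest for Adipoq and the lowest for Adig. The part of these markers in the value of Slc11a2 was not tested.

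Slc40a1 encodes ferroportin, the target of hepcidin, which in liver is abundant in Kupffer cells. It measured 8.36, 8.62, 9.02 and 8.55 in rilpivirine replicates 1 to 4 and 8.71, 8.69, 8.62 and 8.80 in controls. The rilpivirine group again held the lowest and the highest array around a narrow control range. The difference was -0.07 ± 0.14 (SE; adjusted p = 0.945 in limma); it was 0.02 without rilpivirine replicate 1 and 0.08 without rilpivirine replicates 1 and 2 together. Of 12 Kupffer cell markers 11 were lower with rilpivirine and 1 higher, with a median difference of -0.16, and their mean deviation ran from -0.40 to 0.15 with rilpivirine and from -0.08 to 0.30 in controls. At an unadjusted p under 0.05 there were 2 of the 12, both lower and without overlap: the complement genes C1qb, at -0.50 ± 0.14 (SE), and C1qa, at -0.33 ± 0.11 (SE). Over all genes, 3.21% were lower at that threshold and 1.73% were lower without overlap. The defining marker Clec4f had a mean of 7.82 ± 0.29 with the drug and of 7.95 ± 0.27 without it (n = 4 arrays per group, SD). The part of Kupffer cell content in the value of Slc40a1 was not tested.

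Fth1, the ferritin heavy chain with the ferroxidase activity needed for iron storage, was the member closest to no difference. It measured 11.99, 11.79, 11.96 and 12.11 in rilpivirine replicates 1 to 4 and 12.03, 11.87, 11.95 and 11.99 in controls. The rilpivirine group enclosed the control range. The difference was 0.001 (95% confidence interval -0.25 to 0.25; adjusted p = 0.999 in limma), or 0.844 to 1.19 times the control level, and its sign turned to -0.01 after centring of each array. Ferritin and ferroportin are controlled in large part at translation, which these arrays do not measure.

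Members under shared or opposed control were then compared within each array. Of 6 planned pairs 5 could be computed, since Ftl1 had no probe set of its own. In exact permutation tests over the 70 splits of the arrays, two-sided, none of the 5 passed a Benjamini-Hochberg adjusted p of 0.05. The smallest exact p the design allows is 0.0286 before adjustment. A pair that alone reached it would not have passed after adjustment over the 5, so these tests could not call a lone change. Tfrc relative to Fth1, which iron regulatory proteins move in opposite directions at the level of mRNA stability and translation, differed by 0.12 between the groups (exact p = 0.429, adjusted p = 0.536). Hamp relative to its ligand Bmp6 differed by 0.12 (exact p = 0.343) and relative to Tfr2 by 0.20 (exact p = 0.229), each with an adjusted p of 0.536. Hamp relative to Slc40a1 differed by 0.05 (exact p = 0.771). Tfrc relative to Tfr2 had the largest value, 0.34 (exact p = 0.314, adjusted p = 0.536). The within-array differences overlapped between the groups in all 5 pairs. Without rilpivirine replicate 4 the value was 0.12 for Tfrc relative to Tfr2, 0.024 for Tfrc relative to Fth1 and 0.085 for Hamp relative to Tfr2. Hamp relative to Bmp6 was at 0.048 without control replicate 3.

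Across the 8 arrays the 28 pairs of members gave Pearson correlations from -0.63 to 0.87, 15 positive and 13 negative. None passed after adjustment over the 28 pairs in an exact permutation test, by Pearson or by Spearman; before adjustment 3 pairs were under 0.05 by Pearson and 2 by Spearman. Tfrc and Slc11a2, whose transcripts both can carry iron-responsive hairpins, had the highest value, r = 0.87 (exact permutation p = 0.00826, adjusted p = 0.231) and rho = 0.62 (exact permutation p = 0.115, adjusted p = 0.741). Without rilpivirine replicate 4 and control replicate 1, the arrays farthest from the median of Tfrc, r was 0.04, so the relation rests on those samples. Tfrc and Fth1 had r = 0.80 (exact permutation p = 0.0187, adjusted p = 0.261) and rho = 0.74 (exact permutation p = 0.0458, adjusted p = 0.642), and r was 0.50 without the same arrays. Hamp and Slc40a1 had r = -0.49 (exact permutation p = 0.202, adjusted p = 0.630) and rho = -0.50 (exact permutation p = 0.216), and r was -0.83 without control replicates 1 and 2. Hamp and Bmp6 had r = 0.40 (exact permutation p = 0.328) and rho = 0.31 (exact permutation p = 0.462). The value of Hamp and Bmp6 was 0.03 without the same controls, the arrays farthest from the median of Hamp. After removal of the group means, r was 0.87 for Tfrc and Slc11a2, 0.82 for Tfrc and Fth1, -0.51 for Hamp and Slc40a1 and 0.42 for Hamp and Bmp6.

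**Figure D3:**
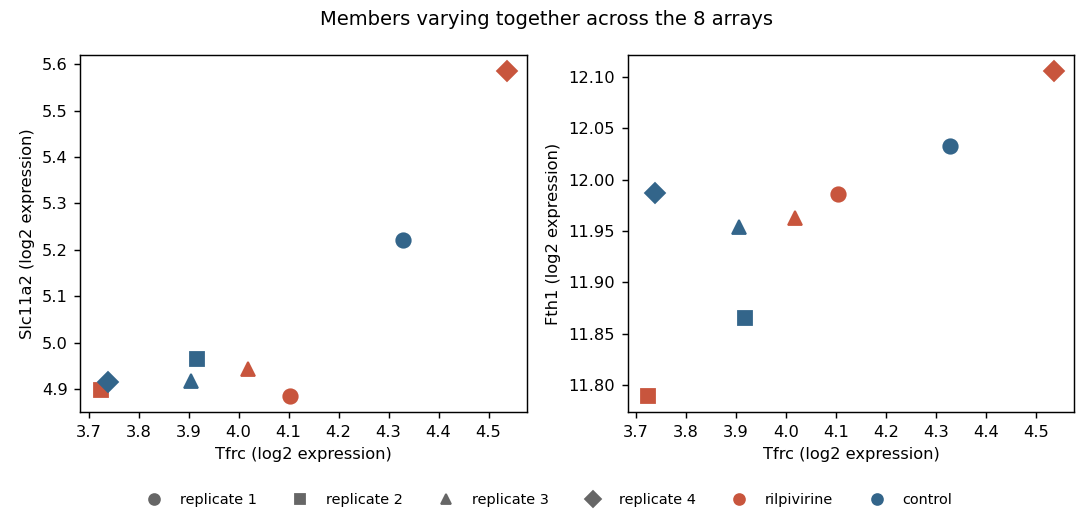
Log2 expression of Slc11a2 (left) and Fth1 (right) against Tfrc in each of the 8 arrays; colour gives the group and marker shape the replicate number. Rilpivirine replicate 4 and control replicate 1 lie at the upper right of both plots, and the other 6 arrays show no slope for Slc11a2 (r = 0.04).

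Beyond the members, 9 lists of iron and heme genes held 99 distinct genes, of which 92 were measured and 89 tested. Of these 0 passed the adjusted threshold in limma, 63 were lower and 26 higher with rilpivirine, and the median difference was -0.08. Over all tested genes 56.9% were lower, with a median of -0.03. The median was -0.06 over genes with a mean above the 50th percentile. At an unadjusted p under 0.05 there were 5 lower and 1 higher, or 6.74% of the 89, close to the 5.21% of all genes, of which 3.21% were lower and 2% higher. The count of 6 was 3 without rilpivirine replicate 2 or control replicate 1 or 4, 10 without control replicate 2 and 13 without rilpivirine replicate 4. Groups did not overlap in 2 of the 89 genes, against 3.04% of all genes.

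**Figure D4:**
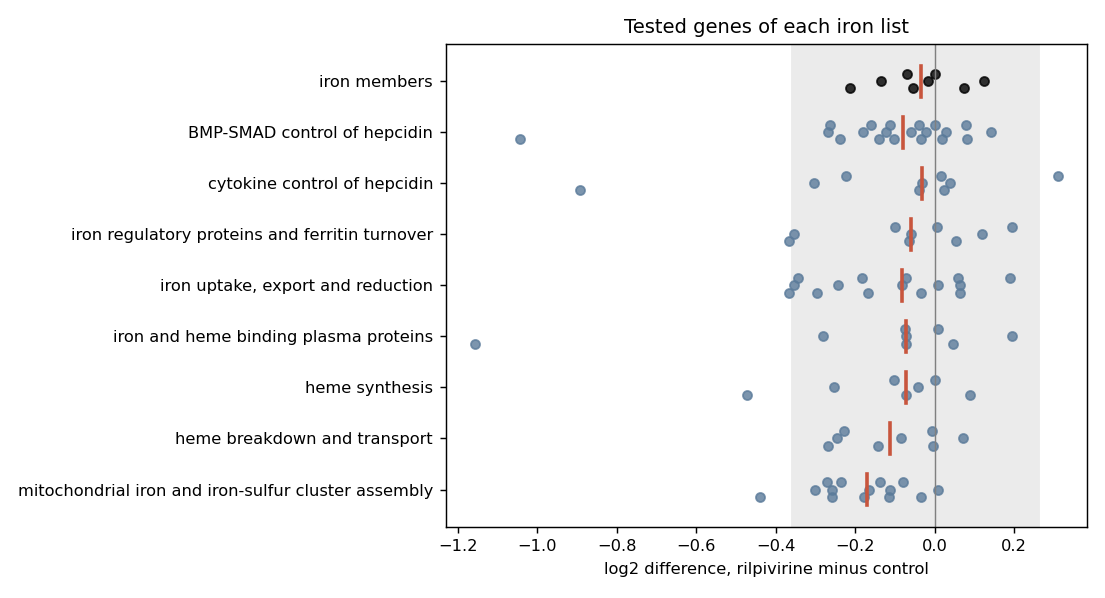
Log2 difference between rilpivirine and control of each tested gene (points) by list, with the list median as a red bar and the 5th to 95th percentile of all tested genes as a grey band; Hamp2 is not drawn. Fgl1, Il6ra and Lcn2 lie far below the band at -1.04, -0.89 and -1.16, and the mitochondrial list has the lowest median, -0.17.

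Hamp2 was the gene on the higher side. It measured 10.53, 10.02, 8.65 and 9.90 in rilpivirine replicates 1 to 4, and 8.33, 9.39, 9.18 and 8.84 in controls. Replicates 1, 2 and 4 lay above every control, and replicate 3 lay among the lowest arrays. The difference was 0.84 (95% confidence interval 0.05 to 1.62; unadjusted p = 0.0390 and adjusted p = 0.890 in limma), and it was 1.21 without rilpivirine replicate 3 and 0.34 without rilpivirine replicates 1 and 2 together. Within arrays, Hamp minus Hamp2 ran from 1.94 to 3.59 with rilpivirine and from 3.20 to 3.89 in controls, and the groups overlapped; the difference between the genes' responses was not tested. The transcripts are similar in sequence, and how far each probe set also binds the other's transcript was not tested.

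In the bone morphogenetic protein and SMAD list, the median difference was -0.08, 14 of 20 tested genes being lower and 6 higher. The hepcidin co-receptor Hjv differed by 0.03 ± 0.18 (SE), and Tmprss6, the protease that cleaves it, by -0.16 ± 0.15 (SE). The SMAD targets Id1, Smad6, Smad7 and Atoh8, which rise with Hamp under BMP6, differed by -0.14, -0.04, -0.26 and -0.06, and the endothelial ligand Bmp2 by 0.08. Erfe, the erythroid suppressor of hepcidin, was dim, at a mean of 3.76 in controls, and differed by 0.08. Fgl1, a protein secreted by hepatocytes that has been described as a further suppressor of hepcidin, measured 8.79, 9.58, 10.59 and 8.97 in rilpivirine replicates 1 to 4 and 10.92, 9.89, 10.34 and 10.96 in controls. Replicates 1, 2 and 4 lay below every control, and replicate 3 lay among them. The difference was -1.04 ± 0.37 (SE; unadjusted p = 0.0168 and adjusted p = 0.855 in limma), a 2.06-fold lower mean.

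In the list of cytokine control, the median difference was -0.03, 5 of 9 tested genes being lower and 4 higher, and Il6 itself was below the filter at a mean of 2.06 in controls. Il6ra, the receptor that binds interleukin 6, measured 7.67, 7.43, 8.03 and 6.40 in rilpivirine replicates 1 to 4, against 8.29, 7.74, 8.63 and 8.44 in controls. Only replicate 3 of the rilpivirine group lay within the control range. The difference was -0.89 ± 0.31 (SE; unadjusted p = 0.0157 and adjusted p = 0.855 in limma), and it was -0.56 without rilpivirine replicate 4, the lowest array. Stat3, the factor that binds the STAT site, differed by -0.30 (unadjusted p = 0.0333 and adjusted p = 0.890 in limma), its shared signalling receptor Il6st by -0.04 and the feedback inhibitor Socs3 by 0.04. Hamp, whose promoter holds that site, differed by -0.02 beside them.

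Among plasma proteins that bind iron or heme, Lcn2 had the smallest p of the lists. Lipocalin 2, its product, binds the siderophores with which bacteria take up iron. It measured 6.79, 7.21, 7.36 and 7.37 in rilpivirine replicates 1 to 4 and 8.87, 8.08, 8.09 and 8.31 in controls, with no overlap. The difference was -1.16 ± 0.20 (SE; unadjusted p = 0.000111 and adjusted p = 0.595 in limma). Hp, the hemoglobin scavenger haptoglobin, differed by -0.28 ± 0.13 (SE), the heme scavenger Hpx by -0.07 and the ferroxidase Cp by 0.01. Of the 8 genes of this list 5 were lower and 3 higher (median -0.07).

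**Figure D5:**
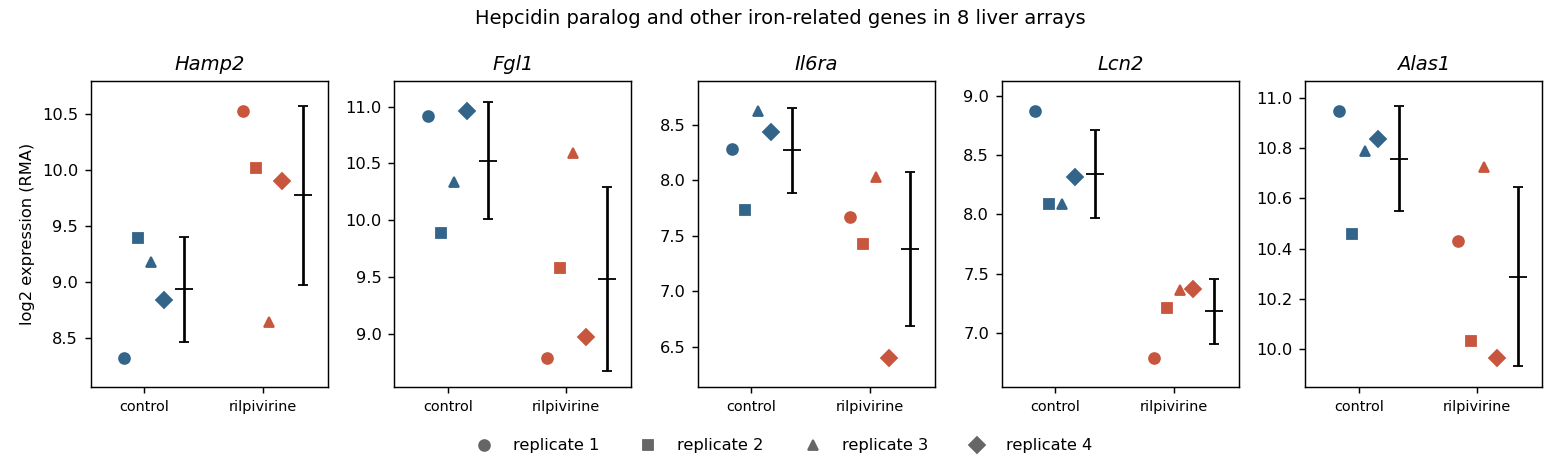
Log2 expression of Hamp2, Fgl1, Il6ra, Lcn2 and Alas1 in each array, with a vertical axis for each gene; marker shapes give the replicate number and bars the mean ± SD (n = 4). Lcn2 separates the groups, whereas in the other 4 genes rilpivirine replicate 3 lies within the control range.

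Iron regulatory proteins and the ferritin turnover genes gave 5 lower and 4 higher of 9. Aco1 and Ireb2, which encode the regulatory proteins, differed by 0.05 and -0.35, and Fbxl5, which marks one of them for degradation, by -0.10. Ncoa4, the receptor that delivers ferritin to autophagy, differed by -0.06. Map1lc3b of the autophagosome had the smallest p of this list, with a difference of -0.37 ± 0.18 (SE), or -0.22 without rilpivirine replicate 4, followed by the iron chaperone Pcbp1 with 0.19 ± 0.11 (SE).

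Of 15 tested genes of iron uptake, export and reduction 10 were lower and 5 higher. Their median difference was -0.08; it was -0.15 without rilpivirine replicate 1 or 2 and -0.17 without control replicate 4. Slc39a14, which imports iron not bound to transferrin into hepatocytes, measured 7.87, 7.64, 7.88 and 7.74 in rilpivirine replicates 1 to 4 and 7.91, 8.03, 8.19 and 7.97 in controls. The groups did not overlap, although the highest rilpivirine array and the lowest control lay close together. Its difference was -0.24 ± 0.12 (SE, with an unadjusted p = 0.0598 and adjusted p = 0.890 in limma). Mcoln1, a channel that releases iron from lysosomes, differed by -0.30 ± 0.13 (SE), and the endosomal ferrireductase Steap3 by 0.07.

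In heme synthesis the median difference was -0.07, 5 of 7 tested genes being lower and 2 higher. Alas1, the rate-limiting enzyme of heme synthesis in liver, measured 10.43, 10.03, 10.72 and 9.96 in rilpivirine replicates 1 to 4 and 10.95, 10.46, 10.79 and 10.84 in controls. Rilpivirine replicate 3 lay within the control range and the other 3 below it. The difference was -0.47 ± 0.18 (SE; unadjusted p = 0.0253 and adjusted p = 0.890 in limma). Fech, which inserts iron into the porphyrin, differed by -0.25 ± 0.15 (SE). In heme breakdown and transport the median was -0.11, 7 of 8 genes being lower and 1 higher. Hmox1, the inducible heme oxygenase, differed by -0.23 ± 0.21 (SE), the transporter Flvcr2 by -0.27 ± 0.12 (SE) and Abcg2, which exports porphyrins, by -0.25 ± 0.17 (SE). Abcg2 was at -0.12 without rilpivirine replicate 2.

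Mitochondrial iron and iron-sulfur cluster genes were lower in 13 of 14 tested members and higher in 1, with a median difference of -0.17, and 0 of them had an unadjusted p under 0.05. Iscu, the scaffold on which clusters form, differed by -0.27 ± 0.13 (SE), and the late-acting assembly factor Isca2 by -0.26 ± 0.13 (SE). The mean of the list in rilpivirine replicate 2, the array that stood apart, was -0.29 from the mean of 8 arrays, against -0.12 to 0.14 in the other 7, and the median was -0.12 without it.

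Rilpivirine replicate 2 was also the lowest array for the means of several other lists. Its mean deviation was -0.28 for the bone morphogenetic protein and SMAD list, -0.28 for heme breakdown and transport, -0.27 for the iron regulatory proteins and ferritin turnover, -0.24 for heme synthesis, -0.17 for cytokine control and -0.14 for the 8 members. Without that array the median difference was -0.0016 for the bone morphogenetic protein and SMAD list, -0.033 for heme breakdown and transport, -0.0091 for heme synthesis and -0.032 for the plasma proteins. The sign turned for the iron regulatory protein list, at 0.045, for cytokine control, at 0.0041, and for the members, at 0.0098. The median of the members was also above 0, at 0.0068, without rilpivirine replicate 3.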

How the data were processed

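The deposited table holds log2 values of 41345 probe sets in 8 samples. The submitters' processing notes name RMA (background correction, quantile normalization and probe summarisation) and limma, without versions; a genome build is not given in the sources used here. This normalization removes differences in total signal between arrays. Platform annotation gave 1 symbol to 23521 probe sets, several to 1814 and none to 16010. For each symbol the single-symbol probe set with the highest mean was kept (22180 genes; Entrez identifiers of 21994 were in RefSeq). The dimmest genes by mean (below the 25th percentile, 2.72 log2; 5545 genes) was left out. Limma 3.58.1 (lmFit, then eBayes) was run in R 4.3.3 over 16635 genes, two-sided, without covariates, with Benjamini-Hochberg adjustment at 0.05; the fit was tested on simulated data. Permutation tests enumerated all splits (70) or pairings (40320) in Python 3.11.15.

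The members, lists and alternatives were chosen with earlier results of these data known. Named genes were the members, Hamp2, Lcn2, Hp and, per list, those with an unadjusted p under 0.05 or else the 2 smallest; other list members were named for their role after values were seen. Marker lists of 10 cell types were summarised as means of deviations from the 8 arrays. Alternatives covered moderation, array weights, centring, quantile normalization, filters, averaging of probe sets, a replicate block and samples left out. Promoters came from RefSeq on GRCm38.p6, aligned globally (match 1, mismatch -1, gap opening -3, extension -1).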

Additional observations from a re-analysis of the deposited data

Results flagged for a closer look

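Of 46 groups of 4 arrays checked for the members and named genes, 3 held an array whose gap to its nearest neighbour exceeded 0.829 of the range of the group; chance gives about 1 in 20. Rilpivirine replicate 4 had Slc11a2 at 5.59 log2, and the other rilpivirine arrays lay between 4.88 and 4.94. It was at 5.22 in control replicate 1, against 4.92 to 4.96 in the other controls. Mcoln1 was lowest in rilpivirine replicate 4, at 7.10, and the other rilpivirine arrays lay between 7.31 and 7.34.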

How the results depend on the processing

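All 17 alternatives called 0 genes and 0 members after adjustment, and the smallest adjusted p of a member was 0.70. Of 136 member values 15 changed sign. The 136 include settings that could not move a member's difference: other moderation, the filters, averaging of probe sets and the replicate block. The further quantile normalization gave Hamp 0.021 and Hfe 0.030, and centring gave Fth1 -0.013. With each sample left out in turn, Hamp ranged from -0.080 to 0.060, Tfr2 from -0.31 to -0.12, Bmp6 from -0.18 to -0.072, Tfrc from -0.024 to 0.25, Hfe from -0.15 to 0.030, Slc40a1 from -0.20 to 0.023, Slc11a2 from -0.10 to 0.15 and Fth1 from -0.047 to 0.059. The change of Hamp relative to Slc40a1 ranged from -0.063 to 0.23, of Tfrc relative to Tfr2 from 0.12 to 0.52, of Tfrc relative to Fth1 from 0.024 to 0.22, of Hamp relative to Tfr2 from 0.085 to 0.27 and of Hamp relative to Bmp6 from 0.048 to 0.19. The median of the uptake, export and reduction list ranged from -0.17 to -0.043, that of the bone morphogenetic protein list from -0.14 to -0.0016, of heme breakdown from -0.18 to -0.033, of heme synthesis from -0.14 to -0.0091, of the iron regulatory protein list from -0.11 to 0.045 and of cytokine control from -0.072 to 0.0041. Without rilpivirine replicates 1 and 2 together, Slc40a1 was at 0.076, Abcg2 at 0.0062, Hamp relative to Slc40a1 at -0.12, the bone morphogenetic protein list at 0.076 and the iron regulatory protein list at 0.078, and 1 member, Tfr2, had an unadjusted p under 0.05 (0.00691). Over all tested genes, 999 were under that threshold without those arrays, against 867 with all arrays. The cause of these shifts was not tested. For Tfr2 the omission left only the rilpivirine arrays below every control, so its difference had to grow. No pair of members was correlated at an adjusted p under 0.05 in the alternatives run, but without rilpivirine replicate 1 Tfrc and Slc11a2 lay exactly on that threshold (r = 0.94, exact permutation p = 0.00179, adjusted p = 0.05, n = 7). Same-numbered samples had correlations of deviations of -0.25, 0.46, -0.09 and 0.07, and the other combinations ran from -0.47 to 0.39. So few values cannot show whether the numbers pair the samples. With the replicate block the smallest adjusted p of a member in limma was 0.844, and 0 genes were called. The number of arrays limits the precision.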

Other observations

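The spread within groups was wider with rilpivirine. In 6 of the 8 members the SD over the rilpivirine arrays exceeded that over the controls, as it did in 69.8% of all tested genes, where the median SD was 0.23 with rilpivirine and 0.16 in controls. Hfe had an SD of 0.27 against 0.06 and Slc40a1 of 0.28 against 0.07, while Hamp, at 0.12 against 0.17, and Bmp6, at 0.13 against 0.17, went the other way.

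The genes whose levels followed Hamp most closely over the 8 arrays, by Pearson r, were Rfx2 (0.97), Ccnk (0.95), Chst2 (0.94), Bak1 (0.94) and Ankrd33 (0.94). They were picked as the highest among all tested genes and are given as a description.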
